A study of Drosophila melanogaster with 10 samples.

Results

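Tubulins and the proteins that bind, cut or regulate microtubules were followed in laser-captured mushroom body neurons of *Drosophila* pupae. The set was named as 10 genes, and every probe set annotated with exactly 1 of their symbols was taken. This gave 16 of the 13966 probe sets tested, for 9 of the 10 genes. The alpha tubulin gene *alphaTub84B* had no probe set annotated to it alone and has no value here.

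Animals of both ages carried the same alleles, in a yw/w background: the driver OK107-GAL4 over a wild-type chromosome (OK107-GAL4/+), and 2 transgenes that it switches on, UAS-mCD8::GFP and UAS-EcRB1[W650A]. The first marks membranes with green fluorescent protein, and the second, EcRDN in the labels, is a mutant ecdysone receptor that blocks the normal one. It acts wherever OK107-GAL4 is active, which is not limited to one class of mushroom body neuron. Pupae 5 h past puparium formation gave 3 arrays, and white pupae, counted as 0 h, gave 6. For each array, about 40 captures of some 100 cell bodies were pooled, and about 22 ng of RNA was amplified in 2 rounds. The labels call the arrays biological replicates without saying how many animals each one held, so p-values measure the spread between these samples. A further array carries labels of both ages and was compared with neither. The y,w animals that the series' design names as a comparison were not analysed here, and so the values compare ages under the mutant receptor and cannot show which genes need the receptor.

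Microtubules are hollow polymers of alpha and beta tubulin. In neurons they fill axons and dendrites, carry transport and are stabilised by microtubule-associated proteins such as Tau and Futsch. When normal mushroom body gamma neurons prune their larval axons early in metamorphosis, loss of microtubules from the branches is among the first visible events, and ecdysone signalling through EcR is needed for it. Severing enzymes of the katanin family and the kinase Par-1 have been tied to microtubule loss during dendrite pruning in fly sensory neurons.

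Values are log2 signals, in which 1 unit is a doubling. Signals of different probe sets depend on how well their probes bind, so the order of signals below is not an order of transcript number. Background was judged by 8 control probe sets for mouse and yeast sequences, whose highest value on any array was 3.73. Affymetrix marks both probe sets of *alphaTub84D* and both of *betaTub60D* as designed with relaxed or incomplete probe selection rules, and that of *alphaTub85E* as matching a gene family. Signal from near-identical paralogues, *alphaTub84B* among them, cannot be told apart from theirs. Where a gene had several probe sets they are lettered from the brightest, A, downward.

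Markers of mushroom body neurons were present in the captured material. All 10 measured genes of a mushroom body list lay above background, with the transcription factor gene *ey* at 9.22 at 5 h and 9.32 at 0 h and the learning gene *14-3-3zeta* at 10.97 and 10.31. Of 9 general neuronal genes, 6 had means above background. Some markers of other cells also read above background. Of 11 glial genes, 9 lay above background, with *repo* at 7.36 at 5 h and 6.53 at 0 h. So did 5 of 9 muscle genes, 6 of 7 genes of dividing cells, 5 of 8 epidermal, 3 of 8 hemocyte, 4 of 7 salivary gland and 4 of 4 fat body genes. Over all probe sets tested, 9207 of 13966 had means above background. A count near or below that share, as for several of these lists and the general neuronal genes, does not show that a cell type was captured. The mean signal of the fat body genes was 6.73 to 8.31 at 5 h and 6.43 to 9.19 at 0 h. That of the general neuronal genes was lower, at 5.05 to 5.09 and 4.82 to 4.96. Replicates at 0 h formed 2 sets. Over all probe sets tested, Pearson r was 0.989 to 0.991 among replicates 1 to 3 and 0.970 to 0.981 among replicates 4 to 6, but 0.948 to 0.974 between these sets, and the labels name no batch that matches the split. Results are therefore also given against each set alone. In such samples, fewer cells of a type and less RNA per cell cannot be told apart.

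**Figure D1:**
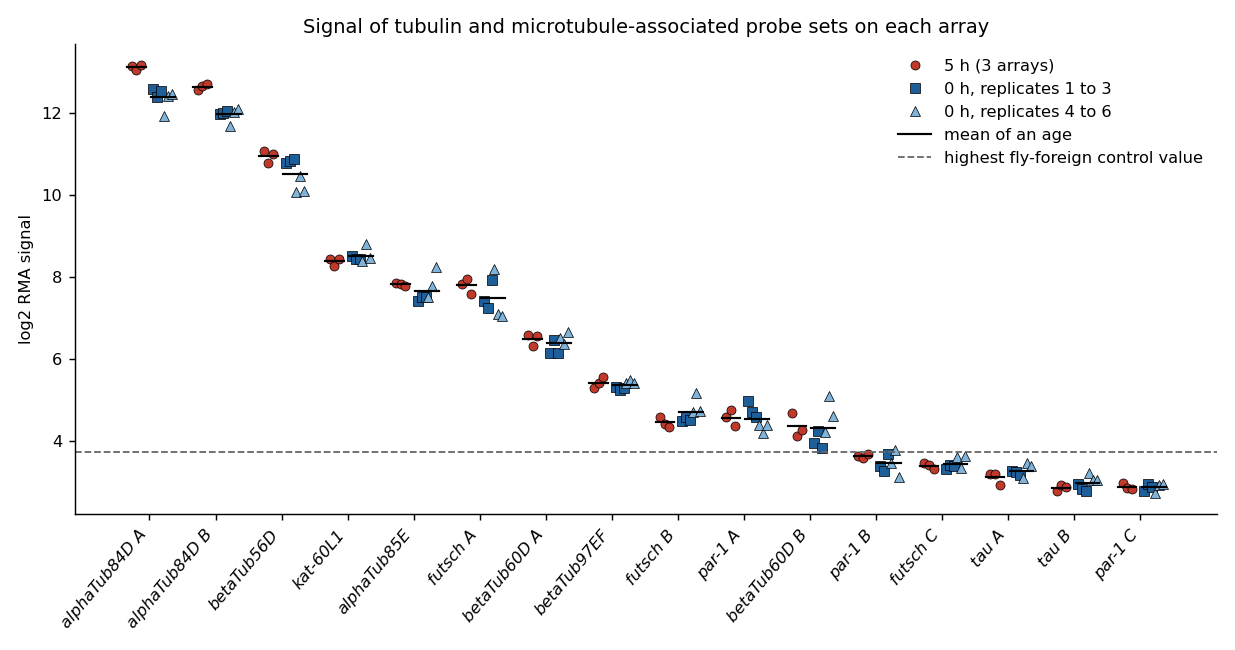
Log2 RMA signal (vertical axis) of the 16 probe sets, ordered by mean signal, with 1 point per array, 5 h to the left of 0 h. Bars are means of an age and the dashed line is the highest fly-foreign control value, 3.73. Only for the 2 *alphaTub84D* probe sets do the 5 h arrays stand clear of all 0 h arrays.

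The brightest signals came from *alphaTub84D*, which encodes a broadly expressed alpha tubulin. Its probe set A was the single brightest of all 13966 on each of the 3 arrays at 5 h, and ranked between 1 and 4 at 0 h. Probe set B ranked 2 on each array at 5 h and between 6 and 10 at 0 h. The beta tubulin gene *betaTub56D*, which encodes the main beta isotype of the nervous system, came next, ranking 37 to 48 at 5 h and 45 to 90 at 0 h. The order then ran through the katanin-like severing gene *kat-60L1* (mean over 9 arrays 8.47), *alphaTub85E* (7.72), the MAP1B homologue *futsch* (7.59), *betaTub60D* (6.42), *betaTub97EF* (5.38), the kinase gene *par-1* (4.55) and *tau* (3.22), each by its brightest probe set. Neighbours in this order were separated in the same sense on all 9 arrays, except *alphaTub85E* and *futsch*, where *alphaTub85E* was higher on 6 of 9 arrays and the gap was 0.13 ± 0.56 (SD, n = 9).

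Between the ages only *alphaTub84D* passed the test. Probe set A read 13.14, 13.06 and 13.16 at 5 h, against 12.59, 12.39, 12.53, 11.92, 12.41 and 12.47 at 0 h. Probe set B read 12.56, 12.65 and 12.71 at 5 h, against 11.98, 12.01, 12.04, 11.68, 12.02 and 12.10 at 0 h. In both, every array at 5 h lay above every array at 0 h, and 0 h replicate 4 was the lowest. The means of A were 13.12 ± 0.06 over 3 arrays at 5 h and 12.38 ± 0.24 over 6 arrays at 0 h (± SD, as for all means below), a 1.66-fold rise (log2 difference 0.73 ± 0.14, SE; limma adjusted p = 0.033). For B they were 12.64 ± 0.07 and 11.97 ± 0.15, a 1.59-fold rise (0.67 ± 0.11, SE; limma adjusted p = 0.020). The 2 probe sets may read the same transcripts and are not independent evidence.

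Among all probe sets, 1.25% passed in either direction, 1.01% as higher and 0.236% as lower at 5 h; of the 16, 2 passed and both were higher. Complete separation of the ages, seen in these 2, occurred in 9.79% of all probe sets, in 5.39% with 5 h higher. The median difference over the 16 was 0.05, against -0.07 over all probe sets, and 11 read higher and 5 lower at 5 h. Over all probe sets 5130 read higher and 8836 lower.

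The *alphaTub84D* rise was also compared under other settings. Against 0 h replicates 1 to 3 alone, A rose by 0.62 and B by 0.63 (limma adjusted p = 0.0029 and 0.0022). In that fit 8.11% of all probe sets passed, 4.37% as higher and 3.74% as lower, and 3 of the 16 did, all higher. Against 0 h replicates 4 to 6 alone they rose by 0.85 and 0.70 (limma adjusted p = 0.0050 and 0.0071). There 22% of all probe sets passed, 12.5% as higher and 9.5% as lower, and again 3 of the 16 did, all higher. Leaving out single arrays gave 0.64 to 0.77 for A and 0.61 to 0.71 for B, but A missed the threshold without 0 h replicate 2, 3 or 5 (limma adjusted p = 0.064, 0.052 and 0.051) and without 5 h replicate 1, 2 or 3 (0.12, 0.14 and 0.22). B missed it without 5 h replicate 1, 2 or 3 (0.066, 0.12 and 0.16). Both missed it with a trended and robust prior (0.087 and 0.088) and with the array of conflicting labels counted as 0 h (0.14 and 0.090). Quantile normalization of the deposited values brought A to 0.30 (limma adjusted p = 0.26) and left B at 0.54 (0.011). That step gives the same value to the same rank on every array. A ranked 1 on each array at 5 h and between 1 and 4 at 0 h. Whether this lowered its difference was not tested.

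Other measures moved with this result. The 3′ bias of an array, taken as the actin control probe set at the 3′ end minus that at the 5′ end, was 8.47 to 8.63 at 5 h and 7.45 to 8.10 at 0 h, without overlap. With it as a covariate the *alphaTub84D* differences were 0.33 ± 0.24 and 0.45 ± 0.21 (SE), neither past the threshold (limma adjusted p = 1.0 for both), and 0 of all probe sets passed, with 552 at an unadjusted p below 0.05. The mean signal of the 11 glial genes was 5.56 to 5.79 at 5 h and 4.81 to 5.33 at 0 h; 6 of them read higher and 5 lower, and 3 rose (*wun2*, *bdl* and *nrv2*), where 1.01% of all probe sets did. That of the 10 mushroom body genes was 7.50 to 7.57 at 5 h and 7.01 to 7.44 at 0 h. Of these genes 7 read higher and 3 lower, and 3 rose (*toy*, *14-3-3zeta* and *br*). Over all probe sets 5130 read higher and 8836 lower. The mean of 9 general neuronal genes, of which *elav* rose, was also higher at 5 h without overlap, at 5.05 to 5.09 against 4.82 to 4.96 at 0 h. Means of the epidermal list (4.19 to 4.25 at 5 h, 4.28 to 4.74 at 0 h) and the salivary gland list (3.69 to 3.76 at 5 h, 3.82 to 5.52 at 0 h) were lower at 5 h without overlap, with no gene past the threshold. The muscle list overlapped between the ages, and 1 of its genes, *bt*, rose. The glial genes *Gli* and *gcm* had means below background at both ages. The 3′ bias did not overlap between the ages, so its part in the *alphaTub84D* difference and that of age cannot be told apart. The part of cell makeup was not tested.

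**Figure D2:**
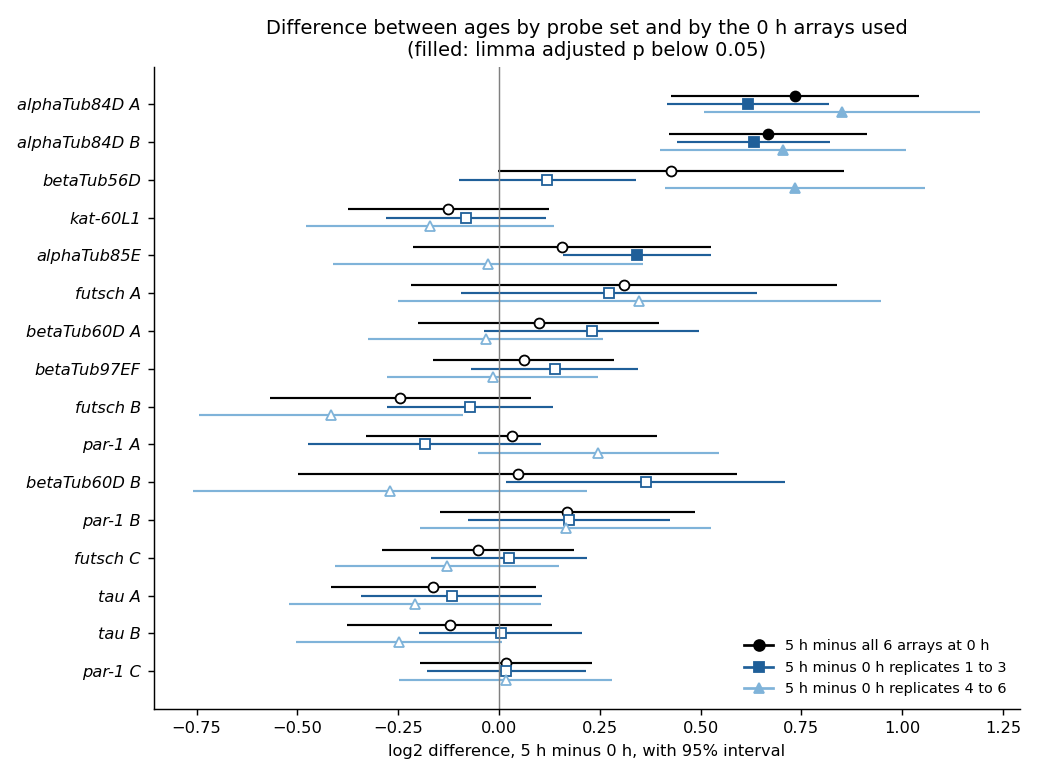
Log2 difference (horizontal axis, 5 h minus 0 h) of each probe set with its 95% limma interval, against all 6 arrays at 0 h, replicates 1 to 3 alone and replicates 4 to 6 alone. Filled points passed an adjusted p of 0.05: *alphaTub84D* in all 3 fits, *alphaTub85E* against replicates 1 to 3 and *betaTub56D* against replicates 4 to 6.

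The other alpha tubulin gene, *alphaTub85E*, is known from testis, muscle attachment and chordotonal cells. It read 7.85, 7.83 and 7.79 at 5 h, against 7.42, 7.51, 7.50, 7.51, 7.79 and 8.25 at 0 h, so that 0 h replicate 6 lay above all 5 h arrays. The log2 difference was 0.16 (95% interval -0.21 to 0.53; limma adjusted p = 0.64). It passed against 0 h replicates 1 to 3 (0.34, limma adjusted p = 0.031) and read -0.03 against replicates 4 to 6 (0.91).

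*betaTub56D* read 11.06, 10.78 and 11.00 at 5 h, against 10.78, 10.82 and 10.88 in 0 h replicates 1 to 3 and 10.07, 10.47 and 10.09 in 0 h replicates 4 to 6. The 5 h arrays thus overlapped the first set and lay above the second. Over all arrays the means were 10.95 ± 0.15 at 5 h and 10.52 ± 0.37 at 0 h, a difference of 0.43 that did not pass (95% interval -0.0019 to 0.85; limma adjusted p = 0.34). Against replicates 4 to 6 alone it rose by 0.73 ± 0.14 (SE; limma adjusted p = 0.0076), and against replicates 1 to 3 alone it read 0.12 higher (0.60). In RefSeq (Release 6) only 1 protein-coding gene lies between *betaTub56D* and *par-1*.

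No difference of the minor beta isotypes between the ages passed the threshold. *betaTub60D*, known as the beta tubulin of muscle and chordotonal organs, read 6.57, 6.31 and 6.56 at 5 h in probe set A and 6.14 to 6.66 at 0 h (median 6.42), with a difference of 0.10 (95% interval -0.20 to 0.40; limma adjusted p = 0.72). Its probe set B was closer to background, at 4.69, 4.13 and 4.28 at 5 h and 3.82 to 5.09 at 0 h. Its difference was 0.05 with an interval of -0.50 to 0.59. *betaTub97EF* varied least among the tubulins at 0 h: it read 5.30, 5.40 and 5.56 at 5 h and 5.25 to 5.48 at 0 h (median 5.36). Its difference of 0.06 had an interval of -0.16 to 0.28 (limma adjusted p = 0.76). In both genes the groups overlapped, and at these intervals a change of 2-fold either way lay outside the 95% range. That holds for the fit without a covariate and is not claimed with the 3′ bias as one. With it *betaTub60D* A read 0.57 ± 0.22, *betaTub60D* B 0.11 ± 0.51 and *betaTub97EF* 0.06 ± 0.20 (SE), none past the threshold. Against 0 h replicates 1 to 3 alone, *betaTub60D* A read 0.23, *betaTub60D* B 0.36 and *betaTub97EF* 0.14. Against replicates 4 to 6 alone they read -0.03, -0.27 and -0.02. None of these passed, and the small differences over all arrays average over 2 unlike sets.

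Whether isotypes moved unequally was asked with the difference between 2 genes on each array, which array-wide scaling does not change. The 3 planned differences that involve *alphaTub84B* could not be formed. *betaTub60D* minus *betaTub56D* was -4.46 ± 0.02 over the 5 h arrays and -4.14 ± 0.55 over those at 0 h (SD; two-sided exact permutation p = 0.36). *betaTub97EF* minus *betaTub56D* averaged -5.52 ± 0.21 at 5 h and -5.16 ± 0.44 at 0 h (exact permutation p = 0.27). *alphaTub85E* minus *alphaTub84D*, a difference added after the data were seen, was -5.37 to -5.23 at 5 h and -5.16 to -4.22 at 0 h, without overlap. Its mean was lower by 0.58 at 5 h (5 h minus 0 h, -0.58; exact permutation p = 0.036), which did not pass after Benjamini-Hochberg adjustment over the 5 differences computed (adjusted exact permutation p = 0.18). *betaTub56D* minus *alphaTub84D*, also added later, averaged -2.17 ± 0.10 at 5 h and -1.87 ± 0.28 at 0 h (exact permutation p = 0.11, adjusted 0.27). With 84 ways to choose the 5 h arrays the smallest p possible was 0.012, so that a single difference could not pass 0.05 after adjustment over 5 even with complete separation. These tests therefore leave unequal and equal change undecided.

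The 2 neuronal microtubule-associated proteins had very different signals. Both probe sets of *tau* lay below the background value on all 9 arrays. Probe set A read 3.21, 3.20 and 2.93 at 5 h and 3.10 to 3.46 at 0 h (median 3.25). Probe set B read 2.78, 2.92 and 2.87 at 5 h and 2.77 to 3.22 at 0 h. *tau* was therefore not above background at either age, and its differences of -0.16 and -0.12 (limma adjusted p = 0.51 and 0.60) carry no direction.

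The 3 probe sets of *futsch* differed in signal, and none passed between the ages. Probe set A read 7.84, 7.96 and 7.59 at 5 h, against 7.40, 7.25, 7.91, 8.20, 7.10 and 7.04 at 0 h. The 0 h arrays spread over more than 1 log2 unit and enclosed those at 5 h, and the difference of 0.31 did not pass (95% interval -0.22 to 0.84; limma adjusted p = 0.54). Probe set B read 4.58, 4.43 and 4.35 at 5 h and 4.49 to 5.16 at 0 h (median 4.64). Its difference was -0.24 (95% interval -0.57 to 0.08, limma adjusted p = 0.45), and the intervals of A and B overlapped. Against 0 h replicates 1 to 3 alone, A read 0.27 and B -0.07. Against replicates 4 to 6 alone they read 0.35 and -0.42, and none of these passed. Probe set C lay below background on all 9 arrays. The planned difference between *futsch* and *tau*, one of the 5, is not given, since *tau* A read background.

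The severing gene *kat-60L1* was the brightest member that is not a tubulin. It read 8.43, 8.27 and 8.44 at 5 h, against 8.51, 8.44, 8.45, 8.39, 8.80 and 8.47 at 0 h. The ages overlapped, with 0 h replicate 5 as the highest array. The difference was -0.13 (95% interval -0.38 to 0.12, limma adjusted p = 0.58) and was negative against either set of 0 h arrays, at -0.08 and -0.17. The median over all probe sets was -0.07, and -0.0033 and -0.12 against those sets.

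*par-1* encodes the kinase that phosphorylates Tau and related proteins and loosens them from microtubules. Only its probe set A was above background throughout. It read 4.59, 4.76 and 4.37 at 5 h, against 4.97, 4.72 and 4.58 in 0 h replicates 1 to 3 and 4.38, 4.20 and 4.40 in 0 h replicates 4 to 6. The 5 h arrays thus overlapped both sets, and the difference of 0.03 (limma adjusted p = 0.93) was -0.18 against the first and 0.25 against the second, neither past the threshold (0.52 and 0.20). Probe set B was above background on 1 of 9 arrays and probe set C on none.

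**Figure D3:**
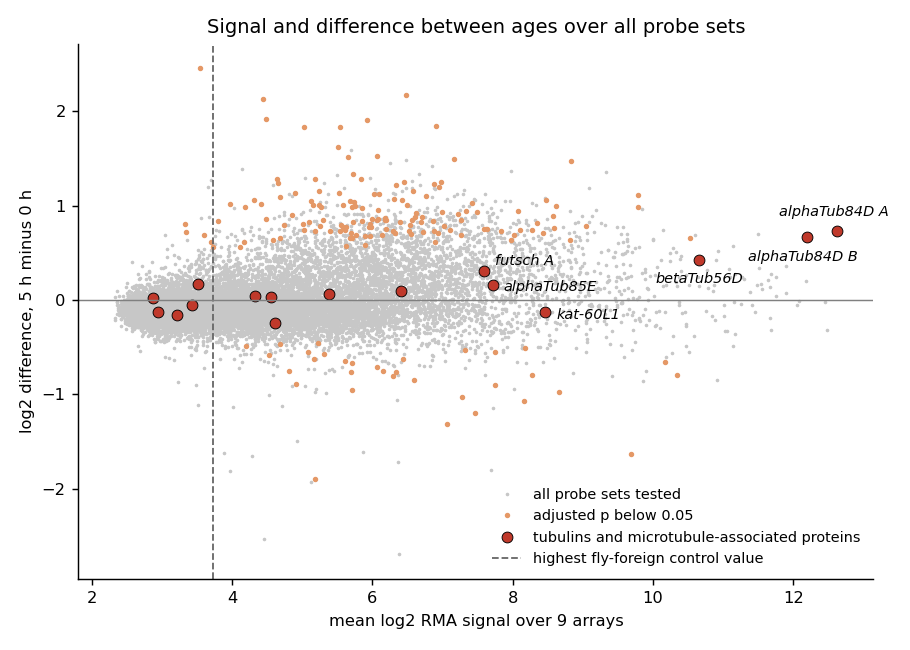
Mean log2 signal over 9 arrays (horizontal axis) against the log2 difference, 5 h minus 0 h (vertical axis), for all 13966 probe sets in grey, those past an adjusted p of 0.05 in orange and the 16 tubulin and microtubule-associated probe sets in red. The 2 *alphaTub84D* points lie at the bright end at 0.73 and 0.67, and the dim red points left of the dashed background line lie between -0.16 and 0.17.

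Genes whose signal followed these most closely were sought among 7502 genes with a mean above background. Over the 9 arrays, *alphaTub84D* A was matched best by *CG3704* (Pearson r = 0.985), *Arglu1* (r = 0.983) and *Dph4* (r = 0.982). These 3 read 0.72, 0.81 and 0.61 higher at 5 h without passing alone (limma adjusted p = 0.073, 0.052 and 0.056). *futsch* A was matched best by *Tnpo* (r = 0.874), *GramD1B* (r = 0.843) and *CG7236* (r = 0.831). The r values describe 9 arrays that fall into sets, and no test goes with them. No match is given for *tau*, whose signal was background.

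Other genes of the microtubule system were taken from 6 lists, of which 64 of 80 genes were measured and 50 had means above background. None of the 64 passed over all probe sets in limma, where 1.25% of probe sets did; 12 had an unadjusted p below 0.05, as did 2051 of the 13966 probe sets. Their median difference was 0.07, against -0.07 over all probe sets, and 38 read higher and 26 lower at 5 h. Over all probe sets 5130 read higher and 8836 lower. Against 0 h replicates 1 to 3 alone 4 rose and 1 fell, where 4.37% of all probe sets passed as higher and 3.74% as lower. Against replicates 4 to 6 alone 14 rose and 5 passed as lower, where 12.5% and 9.5% did. Of the genes described below, those that passed against replicates 4 to 6 include *Tbce* (1.15), *CLIP-190* (1.02), *betaTub85D* (0.50), *dgt3* (0.50) and *spas* (0.49), which rose, and *HDAC6* (-0.93) and *gammaTub37C* (-0.53), which fell. *spas* read -0.22 against replicates 1 to 3. *Klp59D* also passed as lower, but its means lay below background, so it carries no direction.

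Among 4 other tubulins (median 0.01) the testis isotype *betaTub85D* read 5.69 ± 0.22 at 5 h and 5.27 ± 0.15 at 0 h (limma adjusted p = 0.14), and the female germline gene *gammaTub37C* read 5.05 ± 0.11 and 5.27 ± 0.37 (0.59). *alphaTub67C* differed by 0.07. *betaTub65B* lay below background at both ages, at 2.97 at 5 h and 3.01 at 0 h, so its difference of -0.04 carries no direction. Among 18 genes that fold or modify tubulin (median 0.05), the tubulin chaperone gene *Tbce* read 6.58 ± 0.28 at 5 h and 5.73 ± 0.40 at 0 h (limma adjusted p = 0.085). *HDAC6*, which encodes a tubulin deacetylase, read 6.67 ± 0.17 and 7.19 ± 0.50 (0.37).

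Among 8 severing and depolymerising genes (median -0.11), *stai*, which encodes the tubulin-binding protein Stathmin, came closest to the threshold. It read 5.60 ± 0.32 at 5 h and 4.49 ± 0.44 at 0 h, a difference of 1.105 ± 0.24 (SE; limma adjusted p = 0.052). Against 0 h replicates 1 to 3 alone *stai* rose by 0.75 (limma adjusted p = 0.029), and against replicates 4 to 6 alone by 1.46 (0.00061). The kinesin-13 gene *Klp59D* lay below background at both ages, at 2.93 and 3.25. The spastin gene *spas* read 5.49 ± 0.02 at 5 h and 5.35 ± 0.41 at 0 h, and the katanin subunit gene *Kat60* 4.40 ± 0.06 and 4.43 ± 0.19 (limma adjusted p = 0.74 and 0.92); both were picked for their roles after the values were seen.

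Among 13 genes that bind microtubule ends or the lattice (median 0.14), *CLIP-190* read 6.61 ± 0.37 at 5 h and 5.78 ± 0.34 at 0 h (limma adjusted p = 0.081). The gene *ens*, for the microtubule-binding protein Ensconsin, read 4.91 ± 0.17 and 4.28 ± 0.33 (0.12). Among 14 genes of the gamma tubulin ring and augmin complexes (median 0.11), the augmin gene *wac* read 4.07 ± 0.08 at 5 h and 4.73 ± 0.69 at 0 h (0.38), and *dgt3* read 4.49 ± 0.13 and 4.14 ± 0.23 (0.30). The *wac* difference was -1.27 against 0 h replicates 1 to 3, where it passed (limma adjusted p = 0.00012), and -0.04 against replicates 4 to 6 (0.82).

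Among 7 genes for kinases, phosphatases and other regulators tied to Tau or Futsch (median 0.10), *Cdk5*, a neuronal kinase, read 7.37 ± 0.39 at 5 h and 6.17 ± 0.83 at 0 h (limma adjusted p = 0.205). Its activator gene *Cdk5alpha* read 8.40 ± 0.23 and 7.85 ± 0.49 (0.35). Both passed against 0 h replicates 4 to 6 (1.89 and 0.91; limma adjusted p = 0.00079 and 0.011) and not against replicates 1 to 3 (0.50 and 0.19; 0.20 and 0.59).

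**Figure D4:**
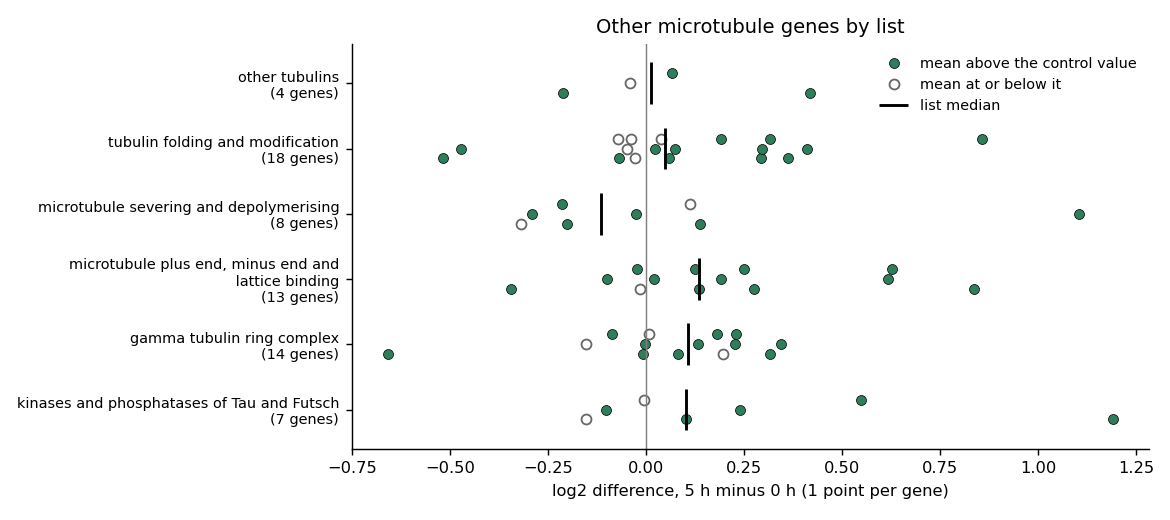
Log2 difference (horizontal axis, 5 h minus 0 h) of 64 other microtubule genes in 6 lists, 1 point per gene by its brightest probe set, open where the mean lay at or below the background value. Black bars are list medians, between -0.11 and 0.14. No gene passed an adjusted p of 0.05, and *Cdk5* and *stai* lie furthest right.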

How the data were processed

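The deposited values are log2 signals made by the authors with RMA, a method that normalizes arrays together and merges each set's probes into 1 value; per the submitters' processing notes the program was Affymetrix Expression Console; versions, the arrays processed together and a genome build are not given in the sources used here. No 2 arrays held the same values. Of 14010 probe sets, 44 controls were left out. The platform annotation gave 1 symbol for 12443 probe sets, several for 327 and none for 1196. In RefSeq (Release 6), 12394 of the 12443 were found by gene identifier, all with the same symbol. No sequences are shown.

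Ages were compared by limma 3.58.1 in R 4.3.3 (lmFit, eBayes, two-sided, no filter), p-values adjusted by Benjamini-Hochberg across the 13966 tested and a threshold of 0.05. Differences between 2 genes used exact permutation tests over 84 splits. The steps were tested on simulated data. For limma these were drawn independently for each array. They held neither the 2 sets of 0 h arrays nor the 3′ bias, so that test does not cover their effect on the calls. List genes were represented by their brightest probe set. Named genes are all genes of the set and the 2 largest differences in each microtubule list, where none passed. The closest 3 matches of *alphaTub84D* and *futsch* are also named (those of *tau* are not given). *alphaTub67C*, *betaTub65B*, *spas*, *Kat60* and marker genes past the threshold were added after their values were seen. The plan to name the 2 brightest genes of each marker list was not followed. The markers *ey*, *repo*, *Gli* and *gcm* did not pass and were named by no fixed rule. The genes and lists were chosen with earlier results of these data known. The number of arrays limits the precision.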

Additional observations from a re-analysis of the deposited data

Results flagged for a closer look

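Of the 16 probe sets, 3 had 1 array at 0 h that stood far from the other 5, with a gap to its nearest neighbour, as a share of the whole range, above Dixon's 95% critical value (the groups of 3 arrays at 5 h were too small to examine). Chance gives this in about 1 group in 20, and the first 2 are of the same gene and array. *alphaTub84D* A read 11.92 and *alphaTub84D* B read 11.68 in 0 h replicate 4, with gap ratios of 0.71 and 0.70. Without that array the differences were 0.64 and 0.61 (limma adjusted p = 0.012 and 0.013). *kat-60L1* read 8.80 in 0 h replicate 5 (gap ratio 0.72), and without it the difference was -0.07 (limma adjusted p = 0.75).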

How the results depend on the processing

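The rise of *alphaTub84D* kept its direction under every alternative run; its calls are given above. Of the 16 probe sets, 2 passed as reported, 1 after repeated quantile normalization, and 0 with the array of conflicting labels as 0 h, with a trended and robust prior or with the 3′ bias as a covariate; leaving out single arrays gave 0 to 2. Over all probe sets 174 passed: 352 with the conflicting array as 5 h and 0 with it as 0 h (1693 at an unadjusted p below 0.05), 1132 against 0 h replicates 1 to 3 and 3077 against replicates 4 to 6, 0 with the covariate (552 at an unadjusted p below 0.05), and 19 to 395 without single arrays. A replicate block gave 743, with *alphaTub84D* A at 0.62 and B at 0.63. Deviations of same-numbered arrays correlated at -0.40, 0.0049 and 0.22. They also followed the 2 sets of 0 h arrays. For 5 h replicate 1 they correlated at -0.40 to -0.21 with 0 h replicates 1 to 3 and 0.18 to 0.30 with replicates 4 to 6. For 5 h replicate 3 these were 0.22 to 0.40 and -0.34 to -0.16. The titles also number the 5 h arrays differently, so whether the numbers pair the samples is undecided.

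Differences that were past no threshold changed sign as follows. Quantile normalization gave -0.052 for *alphaTub85E*, -0.076 for *betaTub60D* A and 0.027 for *futsch* C. Against 0 h replicates 1 to 3, and equally under the block, *tau* B read 0.0039, *futsch* C 0.024 and *par-1* A -0.18. Against replicates 4 to 6, *alphaTub85E* read -0.028, *betaTub60D* A -0.033 and B -0.27, and *betaTub97EF* -0.016. The covariate gave -0.20 for *betaTub56D*, 0.10 for *tau* B, 0.26 for *futsch* C, and -0.066, -0.29 and -0.017 for *par-1* A, B and C. The conflicting array as 5 h gave -0.10 for *betaTub60D* B. Single arrays left out gave -0.11 to 0.20 for *betaTub60D* B, -0.0074 to 0.12 for *betaTub97EF*, -0.0625 to 0.13 for *par-1* A and -0.023 to 0.0405 for *par-1* C. Against replicates 1 to 3, *betaTub60D* and *betaTub97EF* minus *betaTub56D* differed by 0.11 and 0.018. The causes were not tested. Probe sets near background limit what *tau*, *par-1* B and C and *futsch* C can show.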

Other observations

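The array whose title gives 5 h and whose age label gives 0 h read 12.90 and 12.39 for *alphaTub84D* A and B, between the values of the 5 h and the 0 h arrays in both. It read 10.95 for *betaTub56D*, 7.55 for *alphaTub85E*, 8.39 for *kat-60L1*, 7.10 for *futsch* A and 4.53 for *par-1* A, and its actin 3′ bias was 8.44.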
